A study of Mus musculus with 12 samples.

Results

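The 10 genes described here encode the nuclear end of WNT/β-catenin signalling: the TCF/LEF transcription factors (Tcf7, Tcf7l1, Tcf7l2 and Lef1), β-catenin itself (Ctnnb1), its coactivators Bcl9, Bcl9l and Pygo2, and the Groucho-type corepressors Tle1 and Tle3. They were taken by gene symbol from the deposited table of raw read counts, without any threshold on a measured value. They are 10 of the 25210 genes of that table, and all 10 were among the 15316 genes with enough counts to be tested.

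The material was primary mammary epithelial organoids, small pieces of gland grown inside growth-factor-reduced Matrigel, a basement membrane gel, in a minimal medium. The donors were virgin FVB/N females aged 8 to 11 weeks. The 3 cultures were from 3 different animals, and each was divided over 4 treatments of 7 days: the solvent DMSO as vehicle control, or CHIR99021 at 1, 1.5 or 3 µM. CHIR99021 blocks GSK3, whose phosphorylation sends β-catenin to destruction, and was given to switch on WNT/CTNNB1 signalling. The 4 groups share strain, sex, age range, gel and medium, and the labels name no transgene or deleted allele. A group therefore holds 3 libraries, called cultures 1, 2 and 3 throughout, and the series holds 12. RNA was taken from whole cultures, so each value is an average over all their cells, and fewer cells of a type and less RNA per cell cannot be told apart.

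Without a WNT signal, TCF/LEF proteins sit on DNA together with Groucho/TLE proteins and hold target genes down. Stabilised β-catenin displaces these corepressors and brings in BCL9 or BCL9L, which in turn hold the PHD-finger proteins PYGO1 and PYGO2. TCF7L1 is known mostly as a repressor, LEF1 and full-length TCF7 mostly as activators, and TCF7L2 as either. In the mammary gland this pathway is known for its part in basal stem and progenitor cells, and sustained strong activation is known to drive squamous change.

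Library totals ran from 10129264 to 24485855 counts. Expression is given as counts per 1000000 library counts (CPM) after TMM scaling, which evens out library composition (trimmed mean of M values), as mean ± SD over 3 cultures. Log2 fold changes are given ± SE with a p-value from edgeR's quasi-likelihood test, adjusted over all genes tested, and a gene is said to have risen or fallen where that adjusted p was under 0.05. Axin2, a direct TCF/β-catenin target used to check the treatment labels, read 3.24, 2.74 and 2.26 CPM in cultures 1, 2 and 3 with DMSO and 132.0, 67.2 and 52.4 CPM at 3 µM, a log2 fold change of 4.92 ± 0.648 (adjusted p = 0.000147). Summed luminal keratins and other luminal markers ran from 3200 to 5402 CPM in DMSO and basal markers from 2013 to 3281 CPM, so both epithelial layers were present, and fibroblast markers were present as well, at 1624 to 20508 CPM.

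At 3 µM, Tcf7 moved from below Tcf7l1 and Tcf7l2 to above them in level per exon length. Tcf7 rose about 6.16-fold, while Tcf7l1 fell 3.62-fold and Tcf7l2 fell 3.93-fold. Ctnnb1, Pygo2 and Tle3 rose by 1.30- to 1.64-fold on the TMM scale, Bcl9l and Tle1 fell, and Bcl9 had its highest level at 1.5 µM. In all, 8 of 10 genes passed the test at 3 µM, where 57.5% of all genes tested did. Of these, 4 rose (29.9% of all genes did) and 4 fell (27.7%). The count of members is thus read against a background in which most genes changed. The median absolute log2 fold change of the 10 genes was 0.68, and that of all genes tested was 0.67.

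**Figure D1:**
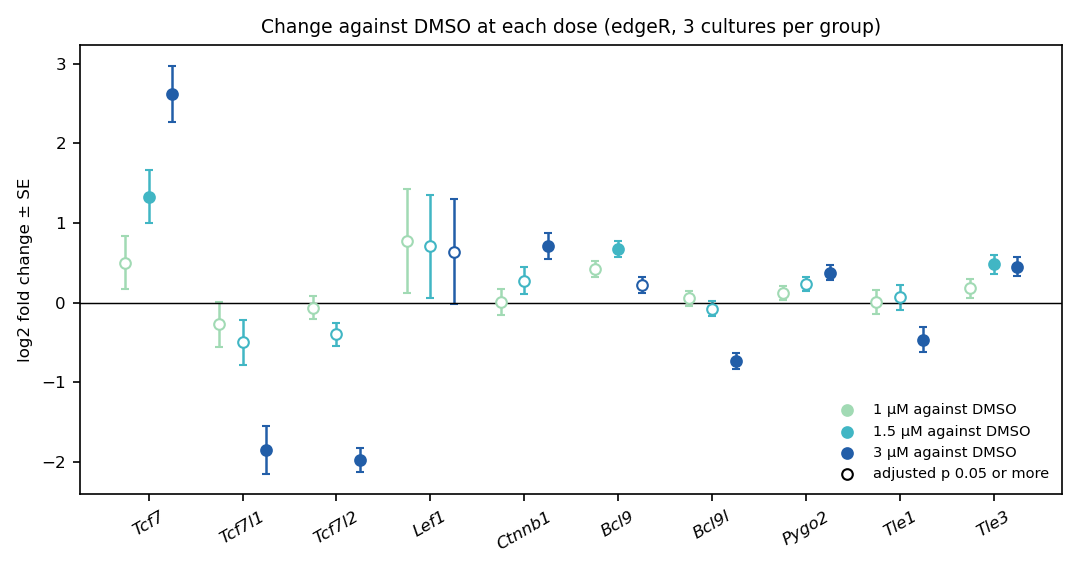
Log2 fold change against DMSO (± SE) for the 10 genes at 1, 1.5 and 3 µM CHIR99021, with filled points where the adjusted p was under 0.05. Tcf7 lies highest at 2.62 and Tcf7l2 lowest at −1.97, both at 3 µM, and no point at 1 µM is filled.

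Tcf7 (ENSMUSG00000000782, chromosome 11, 52252371 to 52283014) encodes TCF1, best known from T cell development. Its level in cultures 1, 2 and 3 was 12.6, 5.18 and 5.28 CPM with DMSO, 14.3, 8.82 and 9.83 CPM at 1 µM, 24.8, 16.9 and 16.9 CPM at 1.5 µM, and 49.6, 48.1 and 45.8 CPM at 3 µM. It was higher at every dose than at the dose below in each culture, and culture 1 was the highest of the 3 at all doses. Values at 1.5 and 3 µM did not overlap those of DMSO, whereas those at 1 µM did. Group means were 7.68 ± 4.24, 11.0 ± 2.93, 19.6 ± 4.56 and 47.8 ± 1.96 CPM. The log2 fold change against DMSO was 0.50 ± 0.337 at 1 µM (adjusted p = 0.622), 1.33 ± 0.339 at 1.5 µM (adjusted p = 0.0163) and 2.62 ± 0.351 at 3 µM (adjusted p = 0.000161). From 1.5 to 3 µM it rose by a further 1.29 ± 0.333 (adjusted p = 0.0168). The 3 µM call held without any single library, while the 1.5 µM call was lost without 1.5 µM culture 1, DMSO culture 2 or DMSO culture 3, with adjusted p up to 0.0724, and when only the DMSO and 1.5 µM libraries were fitted (0.0645). The step from 1.5 to 3 µM was lost without 1.5 µM culture 2 (adjusted p = 0.0641) or culture 3 (0.0561).

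T cell markers were read beside Tcf7. Of 8 such genes, Cd3d, Cd3e, Cd3g, Cd2 and Cd8a had at most 3 counts in any library. The summed level of all 8 ran from 6.98 to 32.5 CPM in DMSO and from 2.35 to 4.62 CPM at 3 µM. Ptprc, which all white blood cells carry, averaged 14.8 ± 10.3 CPM in DMSO and fell to 0.688 ± 0.287 CPM at 3 µM, and Cd4 fell as well. Lck, a kinase of T cell receptor signalling, averaged 1.49 ± 0.280 CPM in DMSO and 2.63 ± 1.35 CPM at 3 µM, where it held the larger part of the summed level, and did not pass the test (log2 fold change 0.81, adjusted p = 0.131). The part of these cells in the Tcf7 result was not tested.

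Tcf7l1 (ENSMUSG00000055799, chromosome 6, 72626378 to 72789254), the TCF family member known as a repressor in stem cells and in skin, went the other way. Cultures 1, 2 and 3 read 22.3, 35.8 and 28.5 CPM with DMSO, 20.0, 26.4 and 25.1 CPM at 1 µM, 20.4, 23.1 and 17.6 CPM at 1.5 µM and 4.70, 7.57 and 11.6 CPM at 3 µM. Only the 3 µM libraries lay below the whole DMSO range. The means were 28.9 ± 6.80, 23.8 ± 3.39, 20.4 ± 2.74 and 7.96 ± 3.46 CPM. Against DMSO the log2 fold change was −0.27 ± 0.286 at 1 µM (adjusted p = 0.783), −0.50 ± 0.286 at 1.5 µM (adjusted p = 0.217) and −1.85 ± 0.298 at 3 µM (adjusted p = 0.000491). Most of that difference lay between 1.5 and 3 µM, where the log2 fold change was −1.35 ± 0.295 (adjusted p = 0.00790).

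Tcf7l2 (ENSMUSG00000024985, chromosome 19, 55741810 to 55933654), known from intestinal crypts, had the most counts of the 4 family members in DMSO. Its values in cultures 1, 2 and 3 were 113.0, 86.6 and 77.8 CPM with DMSO, 99.6, 88.5 and 76.9 CPM at 1 µM, 72.3, 71.7 and 66.7 CPM at 1.5 µM, and 26.3, 21.4 and 23.0 CPM at 3 µM. The 3 cultures were close to each other at 1.5 and at 3 µM, and both doses lay wholly below DMSO. Means were 92.5 ± 18.3, 88.3 ± 11.4, 70.2 ± 3.07 and 23.6 ± 2.47 CPM. The log2 fold change at 1 µM was −0.07 ± 0.145 (adjusted p = 0.913). At 1.5 µM it was −0.40 ± 0.145 (adjusted p = 0.0654), which passed the threshold with culture as a block (adjusted p = 0.00848) and in DESeq2 (0.0467). At 3 µM Tcf7l2 fell by 1.97 ± 0.151 on the log2 scale (adjusted p = 5.76e-06), and between 1.5 and 3 µM by 1.58 ± 0.150 (adjusted p = 0.000168). Like the Tcf7l1 call at 3 µM, these calls at 3 µM were kept in all 12 fits that left out 1 library.

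Lef1 (ENSMUSG00000027985, chromosome 3, 131110471 to 131224356) was barely detected at any dose. It had 13, 7 and 7 counts in cultures 1, 2 and 3 with DMSO, 10, 33 and 12 at 1 µM, 4, 25 and 25 at 1.5 µM, and 6, 13 and 18 at 3 µM. Its means were 0.555 ± 0.168, 0.933 ± 0.591, 0.888 ± 0.600 and 0.849 ± 0.386 CPM, and every treated group overlapped DMSO. Cultures 2 and 3 read higher than DMSO at each dose and culture 1 read lower. The log2 fold changes of 0.77 ± 0.649, 0.71 ± 0.650 and 0.64 ± 0.662 at 1, 1.5 and 3 µM (adjusted p = 0.715, 0.445 and 0.426) were about as large as their errors, so no change was detectable at this depth.

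**Figure D2:**
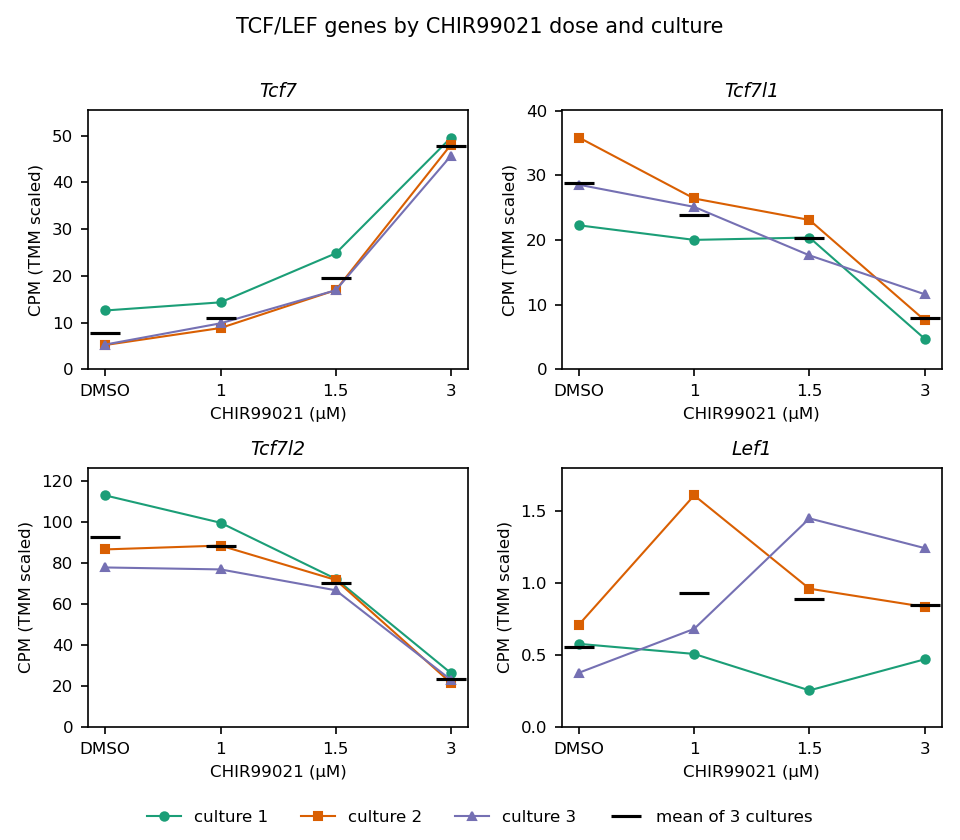
CPM (TMM scaled, linear axes from 0) of Tcf7, Tcf7l1, Tcf7l2 and Lef1 by CHIR99021 dose, 1 line per culture and black bars for the mean of 3. Tcf7 ends at 45.8 to 49.6 CPM and Tcf7l2 at 21.4 to 26.3 CPM at 3 µM, and the lines of Lef1 cross at 0.255 to 1.61 CPM.

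Levels of different genes can be compared only per length, so CPM was divided by the length of each gene's merged exons in kilobases (GENCODE M21). On this scale Tcf7l2 held 50.2 ± 4.26% of the summed TCF/LEF level in DMSO, Tcf7l1 35.9 ± 10.2%, Tcf7 13.6 ± 5.98% and Lef1 0.300 ± 0.0760%. At 1 µM the share of Tcf7 was 20.4 ± 4.20% and at 1.5 µM 35.7 ± 5.10%. At 3 µM Tcf7 held 79.1 ± 3.37%, Tcf7l2 11.7 ± 1.15% and Tcf7l1 8.80 ± 3.81%. The summed level itself was 20.9 ± 2.61, 20.4 ± 1.49, 20.7 ± 2.11 and 23.0 ± 0.201 CPM per kilobase from DMSO to 3 µM, and the 3 µM values lay within the DMSO range. The shares depend on the lengths used, since Tcf7 has 2625 bases of merged exon and Tcf7l2 has 8775. Without the length correction Tcf7 held 5.74% in DMSO and 59.7% at 3 µM, and Tcf7l2 71.0% and 29.4%. These are RNA shares per gene. Forms of TCF7 that lack the β-catenin binding domain are not separated by counts per gene.

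**Figure D3:**
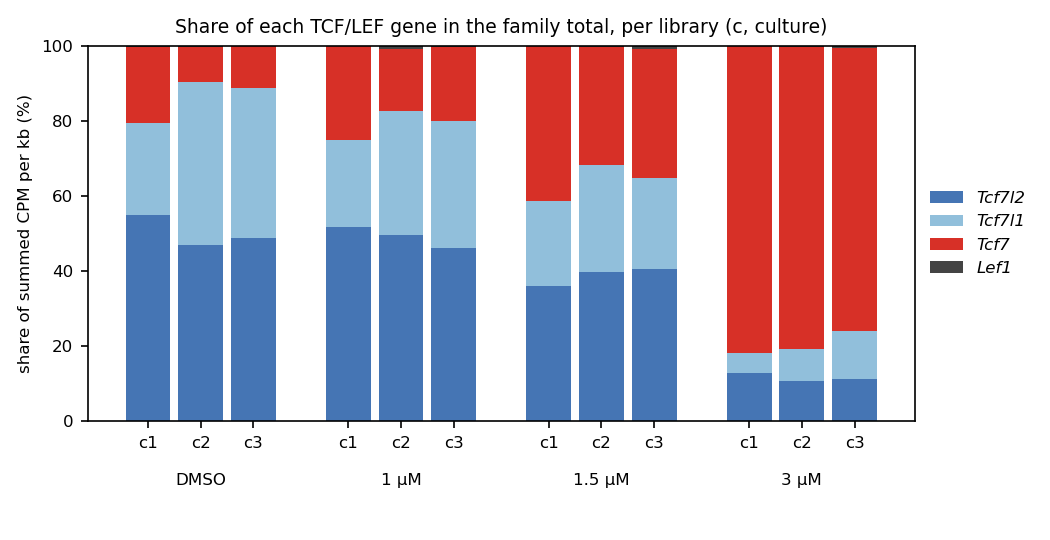
Share (%) of each TCF/LEF gene in the summed CPM per kilobase of the 4 genes, 1 stacked bar per library, grouped by dose. Tcf7 (red) holds 9.37 to 20.5% in the DMSO libraries and 75.3 to 81.7% in the 3 µM libraries.

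The 250 bases before the annotated start sites were searched for the TCF/LEF core motif, because 2 of the family members fell together and 1 rose. RefSeq windows (GRCm38.p6) were on hand for 9 of the 10 genes, 17 windows in all, and none for Bcl9l. The 7-letter motif CTTTGAT, read on both strands, was in 0 of the 17 windows and in 3.2% of 32851 windows of all genes. The shorter CTTTGA, which every CTTTGAT contains and which was added after that result, was in 1 of the 17 and in 13.8% of all windows. That window precedes a start site inside Lef1 (chr3:131156044-131156293, plus strand) and holds the motif 2 times on its minus strand, in capitals below as TCAAAG. A window of Tcf7l2 (chr19:55741560-55741809, plus strand), the member that fell most, is shown beside it and holds neither motif. Another window of Tcf7l2 (chr19:55895071-55895320, plus strand) is not shown and also holds neither. Bases just after the start site of the Lef1 window shown were not found in GENCODE M21 transcripts of Lef1. The window of Axin2, the direct target used as a check, also holds neither motif. A match describes the letters only, and its absence from 250 bases says nothing about more distant sites. Other spellings of the core motif were not searched, so the windows may hold those.
Lef1: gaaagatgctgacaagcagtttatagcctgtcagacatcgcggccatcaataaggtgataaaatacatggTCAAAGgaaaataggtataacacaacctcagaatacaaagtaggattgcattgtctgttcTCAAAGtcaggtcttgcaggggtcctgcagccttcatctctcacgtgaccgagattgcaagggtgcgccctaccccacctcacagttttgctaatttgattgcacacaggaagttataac
Tcf7l2: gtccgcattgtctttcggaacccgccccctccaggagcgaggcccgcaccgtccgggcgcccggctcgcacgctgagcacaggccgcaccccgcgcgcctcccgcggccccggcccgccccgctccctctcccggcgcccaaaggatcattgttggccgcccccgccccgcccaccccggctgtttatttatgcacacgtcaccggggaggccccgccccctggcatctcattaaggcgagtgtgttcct

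The genes whose log2 CPM followed each TCF/LEF gene most closely were found among 12438 other tested genes with at least 50 counts on average (12439 for Lef1), over the 12 libraries, which share 3 cultures and 4 doses. For Tcf7 these were Ripk4 (Pearson r = 0.994), Nufip1 (0.993) and Gm16286 (0.989). Ripk4, a kinase of keratinocyte differentiation, went from 36.4 ± 13.5 CPM in DMSO to 101 ± 4.15 CPM at 3 µM. For Tcf7l1 they were Cdk14 (0.985), Adam12 (0.981) and Ttc28 (0.980), and for Tcf7l2 Frem2 (0.994), Col9a3 (0.990) and Cntn2 (0.988). Frem2, an extracellular matrix protein of basement membranes, went from 52.5 ± 32.9 to 0.172 ± 0.128 CPM. The closest to Lef1 reached only 0.798 (Cthrc1 and Irf3) and 0.784 (Arglu1). Among the 10 genes themselves, Bcl9l followed Tcf7l2 (r = 0.956) and Tcf7l1 (0.925) most closely, and Tcf7 ran opposite to Tcf7l1 (−0.895).

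Markers of other cell types moved over the same doses. Summed fibroblast markers (7 genes) read 1624, 7372 and 20508 CPM in cultures 1, 2 and 3 with DMSO and 175, 972 and 4569 CPM at 3 µM. In edgeR 0 of the 7 passed at 3 µM (0 also at an unadjusted p under 0.05, 2 in DESeq2), and 6 fell with culture as a block. The share of all genes that fell with the block at 3 µM is not given here, and the block raised calls over all genes at 1.5 µM. In culture 1, which had the lowest fibroblast level at every dose, Tcf7l2 differed by −2.10 and Tcf7l1 by −2.22 on the log2 scale between 3 µM and DMSO. In culture 3, which had the highest, the differences were −1.75 and −1.29, and in culture 2 −2.01 and −2.23. Relative to DMSO, the summed fibroblast markers at 3 µM were reduced by the largest factor in culture 1 and the smallest in culture 3. Of the other lists at 3 µM, endothelial markers fell in 5 of 5 genes and macrophage markers in 4 of 6, where 27.7% of all genes fell. Adgre1 had no row under that symbol, and other symbols for it were not searched. Squamous markers rose in 8 of 8 genes (29.9% of all genes did), from 28.3 to 71.8 CPM summed in DMSO to 6936 to 28064 CPM. Of 9 luminal markers 5 fell. Of 7 basal markers the keratins Krt5 and Krt14 and the factor Trp63 rose, and the other 4 (Acta2, Myh11, Cnn1 and Oxtr) fell. The part of these shifts in the changes of the 10 genes was not tested.

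**Figure D4:**
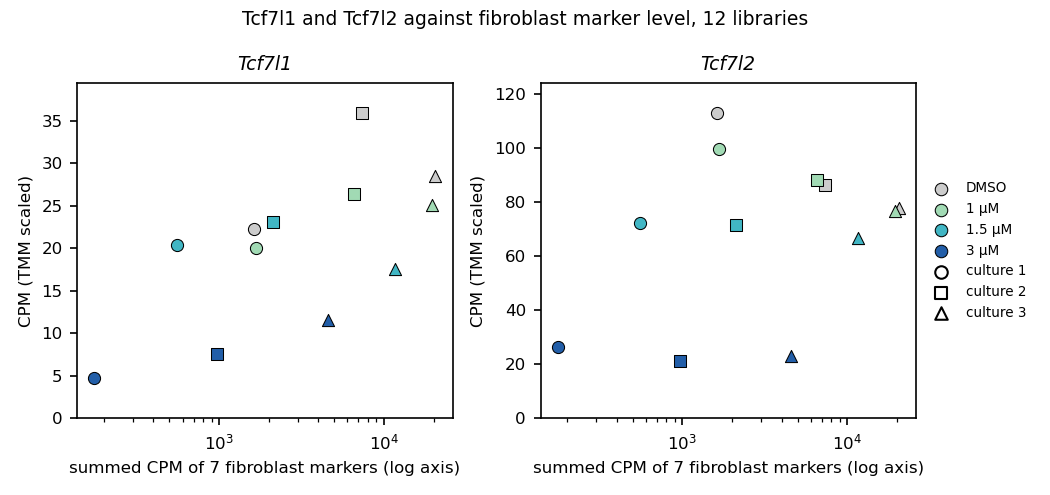
CPM (TMM scaled) of Tcf7l1 and Tcf7l2 against the summed CPM of 7 fibroblast markers (log axis), 1 point per library, colour for dose and shape for culture. The 3 µM points (dark blue) are the lowest in each panel and span 175 to 4569 CPM of fibroblast markers.

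Ctnnb1 (ENSMUSG00000006932, chromosome 9, 120929216 to 120960507) encodes β-catenin, which serves both in cell junctions and as the coactivator of TCF/LEF, and CHIR99021 acts on its protein. Its RNA read 970.9, 855.6 and 670.9 CPM in cultures 1, 2 and 3 with DMSO, 945.4, 866.1 and 698.7 CPM at 1 µM, 1042, 1013 and 970.5 CPM at 1.5 µM, and 1236, 1239 and 1616 CPM at 3 µM. Culture 3 was the lowest of the 3 up to 1.5 µM and the highest at 3 µM, and the 3 µM values did not overlap DMSO. Means were 832 ± 151, 837 ± 126, 1009 ± 36.2 and 1363 ± 218 CPM. It rose at 3 µM by 0.71 ± 0.167 on the log2 scale (adjusted p = 0.00443), which is 1.64-fold. Log2 fold changes at 1 µM (0.01 ± 0.166, adjusted p = 0.994) and 1.5 µM (0.28 ± 0.166, adjusted p = 0.239) did not pass. The step from 1.5 to 3 µM was 0.43 ± 0.166 (adjusted p = 0.0731), with culture as a block 0.44 (adjusted p = 0.0496), and in DESeq2 its adjusted p was 0.0402.

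The junction partners of β-catenin (5 genes) were set beside it. At 1 µM 0 of them passed (0 also unadjusted and in DESeq2). At 1.5 µM 1 rose (15.4% of all genes did) and at 3 µM 2 rose (29.9%). Without DMSO culture 1 the counts were 2 and 4, and without 1.5 µM culture 3 2 rose at 1.5 µM. Jup, plakoglobin, the desmosomal relative of β-catenin, rose from 258.9 ± 60.2 CPM in DMSO to 1288 ± 262 CPM at 3 µM, a log2 change of 2.31 ± 0.225 (adjusted p = 2.17e-05). Cdh3, P-cadherin of basal epithelium, rose from 37.7 ± 7.77 to 72.5 ± 10.3 CPM, a log2 change of 0.94 ± 0.208 (adjusted p = 0.00316). E-cadherin (Cdh1), α-catenin (Ctnna1) and p120 (Ctnnd1) had log2 fold changes of 0.40, 0.23 and −0.39 that did not pass (adjusted p = 0.165, 0.107 and 0.114). With culture as a block 4 of the 5 rose at 3 µM, Cdh1 with an adjusted p of 0.00943 and Ctnna1 with 0.0434. The share of all genes that passed with the block at 3 µM is not given here. At 1.5 µM the block raised that share from 27.3% to 46.7%.

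The coactivator genes each had a course of their own. Bcl9 (ENSMUSG00000038256, chromosome 3, 97203662 to 97228846) encodes the adaptor that binds β-catenin and the PYGO proteins. Cultures 1, 2 and 3 read 64.8, 63.9 and 66.0 CPM with DMSO, 88.2, 90.3 and 81.2 CPM at 1 µM, 113.0, 111.0 and 87.5 CPM at 1.5 µM, and 78.9, 70.8 and 77.4 CPM at 3 µM. All 3 cultures had their highest value at 1.5 µM, and no treated library overlapped DMSO. The means were 64.9 ± 1.05, 86.6 ± 4.75, 104 ± 14.2 and 75.7 ± 4.27 CPM. Bcl9 rose at 1.5 µM by 0.68 ± 0.10 on the log2 scale (adjusted p = 0.00130) and fell from 1.5 to 3 µM by 0.46 ± 0.10 (adjusted p = 0.00807), and both calls held without any single library. At 1 µM its log2 fold change was 0.42 ± 0.10 (adjusted p = 0.134), which passed with culture as a block (adjusted p = 0.0379) and in DESeq2 (0.0303). At 3 µM it was 0.22 ± 0.10 (adjusted p = 0.0804). Its dose slope was accordingly near 0, at 0.06 ± 0.0768 per µM (adjusted p = 0.505).

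Bcl9l (ENSMUSG00000063382, chromosome 9, 44499136 to 44510388), the closest relative of Bcl9, did not show this peak. It read 197.1, 178.8 and 170.9 CPM in cultures 1, 2 and 3 with DMSO, 193.6, 194.7 and 179.3 CPM at 1 µM, 176.1, 176.9 and 165.6 CPM at 1.5 µM, and 96.1, 110.1 and 122.7 CPM at 3 µM. Values overlapped DMSO up to 1.5 µM and lay wholly below it at 3 µM. Bcl9l fell at 3 µM by 0.73 ± 0.0964 on the log2 scale against DMSO (adjusted p = 0.000138) and by 0.66 ± 0.0963 against 1.5 µM (adjusted p = 0.00118). Log2 fold changes at 1 and 1.5 µM were 0.05 ± 0.0957 and −0.08 ± 0.0958 (adjusted p = 0.887 and 0.582).

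Pygo2 (ENSMUSG00000047824, chromosome 3, 89430214 to 89435128) encodes the PHD-finger protein known to support mammary progenitor growth. Its levels in cultures 1, 2 and 3 were 53.7, 48.1 and 55.2 CPM with DMSO, 54.6, 55.2 and 60.6 CPM at 1 µM, 59.0, 59.9 and 65.9 CPM at 1.5 µM, and 61.7, 69.9 and 72.3 CPM at 3 µM. Each culture stepped up at every dose, by small amounts. Pygo2 rose at 3 µM by 0.38 ± 0.0906 on the log2 scale (adjusted p = 0.00510). At 1.5 µM the log2 fold change was 0.23 ± 0.0904 (adjusted p = 0.0785, with culture as a block 0.0227). The 3 µM call rests on the TMM scale: with library size alone its log2 fold change was 0.18 (adjusted p = 0.157). It was also lost when only the DMSO and 3 µM libraries were fitted (adjusted p = 0.0516). Library size alone moved the median log2 fold change of all genes at 3 µM from −0.03 to −0.23.

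Among 17 other coactivators and partners of the complex, 0 passed at 1 µM (1 unadjusted, 0 in DESeq2). At 1.5 µM 4 rose and 2 fell, where 27.3% of all genes passed, 15.4% by rising and the rest by falling. At 3 µM 4 rose (29.9% of all genes did) and 8 fell (27.7%). The median log2 fold change at 3 µM was −0.21, against −0.03 for all genes. Pygo1, the other PYGO gene, fell from 12.9 ± 3.35 CPM in DMSO to 1.71 ± 0.342 CPM at 3 µM, a log2 change of −2.91 ± 0.278 (adjusted p = 2.01e-05), and it had already fallen at 1.5 µM (−1.55, adjusted p = 0.00232). The paired ATPases Ruvbl2 and Ruvbl1, known as reptin and pontin, which bind β-catenin, rose at 3 µM by log2 fold changes of 1.24 ± 0.121 (adjusted p = 2.22e-05) and 0.80 ± 0.150 (adjusted p = 0.00121). Kmt2a, a histone H3 methyltransferase, fell by 0.90 ± 0.169 (adjusted p = 0.00127). At 1.5 µM 1 rose without DMSO culture 3, and 2 rose without DMSO culture 2, 1.5 µM culture 1 or 2, or 3 µM culture 1. The number that fell at 1.5 µM was 1 without culture 1 or 2 of DMSO, 1 µM or 1.5 µM, or without 1.5 µM culture 3. The count that fell at 3 µM was 4 when only the DMSO and 3 µM libraries were fitted. It was 5 without DMSO culture 1 or 3 µM culture 2, and 10 with library size alone.

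The corepressor genes parted as well. Tle1 (ENSMUSG00000008305, chromosome 4, 72117142 to 72200919) read 58.1, 46.6 and 39.6 CPM in cultures 1, 2 and 3 with DMSO, 54.8, 48.3 and 42.0 CPM at 1 µM, 54.5, 53.5 and 42.9 CPM at 1.5 µM, and 34.1, 36.1 and 34.3 CPM at 3 µM. Only at 3 µM did all 3 cultures lie below DMSO. Tle1 fell at 3 µM by 0.47 ± 0.154 on the log2 scale (adjusted p = 0.0242), a call that was lost without DMSO culture 1 (adjusted p = 0.101) or 3 µM culture 1 (0.0585). From 1.5 to 3 µM it fell by 0.53 ± 0.153 (adjusted p = 0.0268), lost in 5 of the 12 fits without 1 library, with adjusted p up to 0.0866. At 1 and 1.5 µM its log2 fold changes were 0.01 ± 0.153 and 0.06 ± 0.153 (adjusted p = 0.993 and 0.786).

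Tle3 (ENSMUSG00000032280, chromosome 9, 61372366 to 61418497), also known as an adipocyte cofactor, had nearly equal values of 141.7, 139.0 and 139.2 CPM in cultures 1, 2 and 3 with DMSO. It read 179.0, 151.9 and 144.4 CPM at 1 µM, 213.4, 201.1 and 172.9 CPM at 1.5 µM, and 202.9, 208.2 and 162.9 CPM at 3 µM. Every treated library was above all DMSO libraries, and culture 3 was the lowest at each dose of CHIR99021. Tle3 rose at 1.5 µM by 0.48 ± 0.120 on the log2 scale (adjusted p = 0.0144) and at 3 µM by 0.45 ± 0.120 (adjusted p = 0.00870). From 1.5 to 3 µM the difference was −0.03 ± 0.119 (adjusted p = 0.854). The 1.5 µM call was lost without 1.5 µM culture 1 (adjusted p = 0.0611), DMSO culture 2 (0.0594) or DMSO culture 3 (0.0552), and the 3 µM call with library size alone (log2 fold change 0.25, adjusted p = 0.104).

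**Figure D5:**
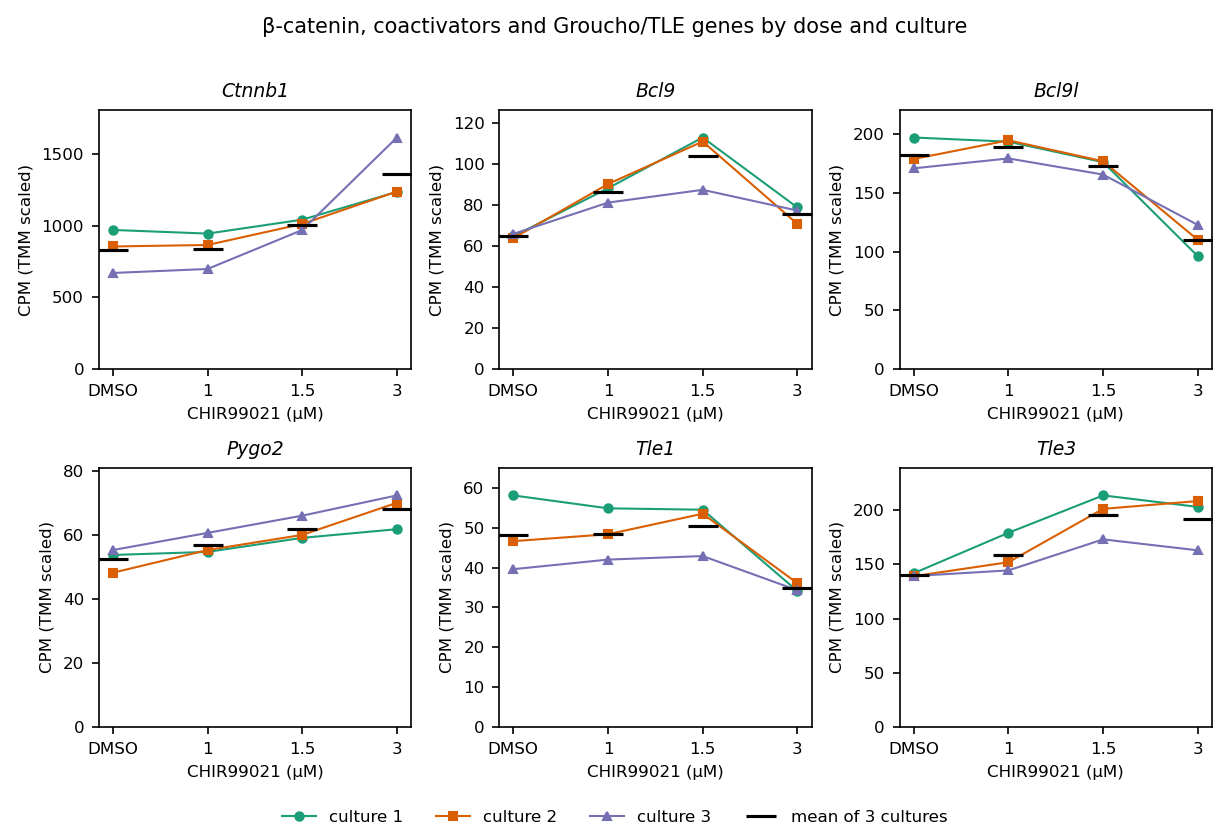
CPM (TMM scaled, linear axes from 0) of Ctnnb1, Bcl9, Bcl9l, Pygo2, Tle1 and Tle3 by CHIR99021 dose, 1 line per culture and black bars for the mean of 3. Bcl9 is highest at 1.5 µM in all 3 cultures (87.5 to 113.0 CPM), and Bcl9l is lowest at 3 µM (96.1 to 122.7 CPM).

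Of 15 other corepressors and nuclear regulators of the pathway, 0 passed at 1 µM (2 unadjusted, 0 in DESeq2). Of all genes 0.242% passed there. With culture as a block 1 fell at 1 µM (Hipk2, adjusted p = 0.0328), where 5.61% of all genes passed. At 1.5 µM 3 fell, where 27.3% of all genes passed, 15.4% by rising and the rest by falling. With culture as a block 1 rose and 4 fell there, where 46.7% of all genes passed. The number that fell was 2 without DMSO culture 1, 1 µM culture 2 or 3, 3 µM culture 1, or any 1.5 µM culture. It was also 2 with library size alone, with no filter on low counts, and when only the DMSO and 1.5 µM libraries were fitted. At 3 µM 4 rose (29.9% of all genes did) and 4 fell (27.7%), with a median log2 fold change of −0.11. Tle2 fell from 43.1 ± 2.60 CPM in DMSO to 16.6 ± 2.62 CPM at 3 µM, a log2 change of −1.38 ± 0.147 (adjusted p = 3.82e-05). Hipk2, a kinase that phosphorylates TCF proteins, fell from 162.8 ± 48.1 to 43.5 ± 3.70 CPM (−1.90 ± 0.251, adjusted p = 0.000150). Hbp1, a repressor that blocks TCF binding to DNA, fell by 0.94 ± 0.147 (adjusted p = 0.000411), and Xiap, a ubiquitin ligase that removes TLE from TCF, by 0.63 ± 0.0650 (adjusted p = 3.00e-05). The 4 that rose were Tle5 (listed as Aes), Ctbp2, Hdac1 and Hdac2, by 0.37 to 0.57 on the log2 scale, and with library size alone 1 of them (Hdac1) passed while 7 genes of the list fell. Tle4 had a log2 fold change of 0.40 (adjusted p = 0.192) that passed with culture as a block (0.0289), and Tle6 one of 0.13 (adjusted p = 0.552). Of the 6 TLE genes described, then, Tle3 and Tle5 rose and Tle1 and Tle2 fell at 3 µM on the TMM scale.

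The order of the 10 genes per length differed between DMSO and 3 µM. In DMSO, Ctnnb1 led with 160 ± 29.1 CPM per kilobase, followed by Bcl9l (22.8 ± 1.68), Pygo2 (14.4 ± 1.02), Tle3 (12.0 ± 0.132), Tcf7l2 (10.5 ± 2.08), Bcl9 (7.68 ± 0.125), Tcf7l1 (7.36 ± 1.73), Tle1 (5.52 ± 1.07), Tcf7 (2.92 ± 1.62) and Lef1 (0.0632 ± 0.0191). Neighbours whose mean ± SD overlapped were Tle3 with Tcf7l2, Bcl9 with Tcf7l1, Tcf7l1 with Tle1, and Tle1 with Tcf7. At 3 µM the order in CPM per kilobase was Ctnnb1 (263 ± 42.1), Pygo2 (18.7 ± 1.53), Tcf7 (18.2 ± 0.745), Tle3 (16.4 ± 2.13), Bcl9l (13.7 ± 1.66), Bcl9 (8.96 ± 0.505), Tle1 (4.00 ± 0.124), Tcf7l2 (2.68 ± 0.281), Tcf7l1 (2.03 ± 0.882) and Lef1 (0.0966 ± 0.0439). Pygo2, Tcf7 and Tle3 then overlapped, as did Tle3 with Bcl9l, and Tcf7l2 with Tcf7l1.

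Dose by dose, 0 of the 10 genes passed at 1 µM, where 0.242% of all genes did. At an unadjusted p under 0.05 there was 1 (Bcl9), and with culture as a block 1 passed (Bcl9) against 5.61% of all genes, as it did in DESeq2. At 1.5 µM 3 passed, all higher (Tcf7, Bcl9 and Tle3), against 27.3% of all genes in either direction and 15.4% higher. With culture as a block 5 passed, with Pygo2 higher and Tcf7l2 lower in addition, against 46.7%. Without 1.5 µM culture 1 or DMSO culture 2, 1 of the 10 passed. Between 1 and 1.5 µM 0 passed, against 5.43%, with 4 at an unadjusted p under 0.05, 0 in DESeq2 and 3 with culture as a block (Tcf7 and Tle3 higher, Tcf7l2 lower, against 21.9%). Between 1.5 and 3 µM 6 passed, against 29.7%. Of these, 1 rose (Tcf7, against 17% of all genes) and 5 fell (Tcf7l1, Tcf7l2, Bcl9, Bcl9l and Tle1, against 12.7%). Without 1.5 µM culture 2, 4 of the 10 passed. Values of the treated group did not overlap DMSO for 2 of the 10 genes at 1 µM (19.4% of all genes), 5 at 1.5 µM (45.6%) and 9 at 3 µM (60.8%).

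A slope over dose, with DMSO at 0, passed for 8 of the 10 genes, against 58.2% of all genes. It was steepest in Tcf7 (0.90 ± 0.105 log2 units per µM, adjusted p = 2.86e-05), Tcf7l2 (−0.69 ± 0.102, adjusted p = 0.000147) and Tcf7l1 (−0.63 ± 0.111, adjusted p = 0.000472). Whether slopes differed between the 3 cultures was tested in a model with culture, dose and their product, and 0 of the 10 genes passed, as 0% of all genes did. At an unadjusted p under 0.05 there were 2 of the 10, against 1230 of the 15316 genes tested. Ctnnb1 had slopes of 0.13, 0.19 and 0.45 in cultures 1, 2 and 3 (adjusted p = 0.543), and Tcf7 had 0.69, 1.1 and 1.05 (adjusted p = 0.558).

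Target and feedback genes are where TCF/LEF and β-catenin act. Of 13 such genes, 11 were tested, since Sp5 and Dkk4 had at most 2 counts. At 1 µM 0 passed (4 unadjusted, 3 in DESeq2, and 2 higher with 1 lower with culture as a block). At 1.5 µM 4 rose and 1 fell, and at 3 µM 4 rose and 2 fell (6 and 2 with the block). Of all genes tested, 27.3% passed at 1.5 µM (15.4% higher), and at 3 µM 29.9% rose and 27.7% fell. With the block 5.61% of all genes passed at 1 µM, and the share with the block at 3 µM is not given here. Without 1.5 µM culture 1 or DMSO culture 2, 2 rose at 1.5 µM, and without 1.5 µM culture 3, 2 fell there. At 3 µM 1 fell without DMSO culture 1, DMSO culture 3, 3 µM culture 2 or 3 µM culture 3. Tnfrsf19, a receptor of the TNF family, rose at 3 µM from 1.15 ± 1.2 to 23.2 ± 11.9 CPM, a log2 change of 4.27 ± 0.740 (adjusted p = 0.000803), and Znrf3, the ubiquitin ligase that removes WNT receptors, from 15.0 ± 0.891 to 36.2 ± 8.36 CPM (1.27 ± 0.169, adjusted p = 0.000146). Lgr5, a receptor of R-spondins, fell from 187.4 ± 39.6 to 0.288 ± 0.168 CPM (adjusted p = 8.92e-07).

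Some counts may hold reads of overlapping genes. Whether counting used the strand is not given in the sources used here, which matters for overlapping genes on the opposite strand. On the opposite strand, Tcf7 overlaps A630014C17Rik (at most 6 counts in any library) and Tcf7l1 overlaps Gm15401 (at most 17). Ctnnb1 overlaps Ulk4 (at most 56) and Bcl9l overlaps Cxcr5 (at most 22), also on the opposite strand. On the same strand, Tcf7 overlaps Gm26551 (at most 5) and Tcf7l2 overlaps Ppnr (at most 17). The main p-values weigh a difference against the spread between cultures of 3 animals within a group, and do not use the pairing by animal. That spread, as edgeR's common biological coefficient of variation, was 0.305 without culture as a block and 0.156 with it.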

How the data were processed

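Polyadenylated RNA of 12 libraries (4 groups, 3 cultures each) was sequenced with a stranded protocol, per the labels' protocols. The authors deposited raw read counts per Ensembl gene, whole numbers used here as deposited, and a table of log2 values that is not used here. The submitters' processing notes name TopHat2 2.1, Bowtie 1.1.0, HTSeq, DESeq2 and the build GRCm38 (mm10). The annotation release and the strand setting of counting are not given in the sources used here. Of 25210 gene IDs, 24902 were found in GENCODE M21 (GRCm38), 99.996% of them on the same chromosome, and coordinates are those of the deposited table. Columns left unassigned numbered 0.

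The 10 genes and all lists were chosen with earlier results of these data known. Every member is named, and from each other gene list the up to 4 genes with the largest change among those called at 3 µM with one direction in all 3 cultures; others named were chosen after their values were seen.

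Genes were kept by filterByExpr (15316), scaled by TMM and tested two-sided with edgeR's robust quasi-likelihood functions (glmQLFit and glmQLFTest, version 4.0.16 in R 4.3.3), in 1 model of the 4 group means. Benjamini-Hochberg adjustment covered all genes tested, with a threshold of 0.05. SE is the log2 fold change divided by the square root of F. Correlations used log2 CPM with a prior count of 2. The steps were tested on simulated data. Alternatives were culture as a block, library size alone, DESeq2's size factors, DESeq2 1.42.0, no filter on low counts, fits of 2 groups, each library left out, and shares without length correction. CTTTGA was searched after CTTTGAT had been seen to be absent. Lengths are merged exons of GENCODE M21.

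Replicate numbers pair the libraries, because each is an animal, per the labels. Deviations from group means correlated in all 18 same-number pairs, from 0.177 to 0.840, against a median of −0.212 in 36 pairs of different numbers. Deviations within a group cancel each other, so positive values in same-number pairs force negative values in the others. The negative median is therefore no separate evidence of pairing. Library totals of 10129264 to 24485855 counts gave 4 to 33 counts for Lef1 and at least 51 for every other member. Replicate libraries differed by more than sampling noise (chi-square per degree of freedom at least 12.8).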

Additional observations from a re-analysis of the deposited data

How the results depend on the processing

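Counts of called genes among the 10 stayed within 1.5 times the reported count under every alternative except these. With the replicate block they were 1 at 1 µM, 5 at 1.5 µM and 3 between 1 and 1.5 µM, and the block ended no call, gained 7 and changed no other. DESeq2 called 1 at 1 µM. Without 1 library the counts ran from 0 to 0 at 1 µM, 1 to 3 at 1.5 µM, 7 to 9 at 3 µM, 0 to 1 between 1 and 1.5 µM, 4 to 7 between 1.5 and 3 µM, 6 to 8 for the slope and 0 to 0 for slopes differing between cultures. The slope count of 6 was without 3 µM culture 2. Without 1 library, the 17 other coactivators and partners had 1 to 4 higher at 1.5 µM, lowest without DMSO culture 3.

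Among log2 fold changes, 3 reversed with library size alone, none of them called: Tcf7l2 at 1 µM to 0.00895, Pygo2 between 1.5 and 3 µM to −0.13 and the Bcl9 slope to −0.0122. That scaling also ended the calls of Pygo2 and Tle3 at 3 µM and in slope. In fits of 2 groups, Ctnnb1 and Tle1 at 1 µM reversed to −0.00702 and −0.00587. Leaving out 1 library turned the sign of values that were not called: at 1 µM Tcf7l2 ran from −0.20 to 0.10, Ctnnb1 from −0.15 to 0.13, Bcl9l from −0.0162 to 0.11 and Tle1 from −0.14 to 0.17. At 1.5 µM Tle1 ran from −0.10 to 0.23. Between 1 and 1.5 µM Lef1 ran from −0.56 to 0.58 and Tle1 from −0.0362 to 0.16. Between 1.5 and 3 µM Lef1 ran from −0.49 to 0.43 and Tle3 from −0.11 to 0.0779. DESeq2's size factors and no filter on low counts changed none of the 60 values' calls.

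Without length correction the shares of the TCF/LEF sum were, from DMSO to 3 µM, 5.74, 8.81, 17.5 and 59.7% for Tcf7 and 71.0, 71.0, 63.3 and 29.4% for Tcf7l2. For Tcf7l1 they were 22.8, 19.4 and 18.3% up to 1.5 µM, and for Lef1 0.427% in DMSO and 1.06% at 3 µM. Among the 10 genes, depth limits Lef1 most.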
